A study of Homo sapiens with 7 samples.

Results

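The 10 genes described here carry iron into the cell, store it, release it and sense it. They are the transferrin receptors TFRC and TFR2, the endosomal iron reductase STEAP3, the divalent metal transporter SLC11A2 (DMT1), the ferritin chains FTH1 and FTL, the ferritin autophagy receptor NCOA4, the iron exporter SLC40A1 (ferroportin) and the iron regulatory proteins ACO1 (IRP1) and IREB2 (IRP2). They were taken by name from the annotation of the array, and all 10 were found among its 36337 gene names, with 18 of its 50599 non-control probes and 36 of its 58717 non-control spots.

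The samples were HCT116 cells, a near-diploid human colon carcinoma line, in a derivative that expresses histone H2B fused to GFP, grown with 10% serum per the labels (the methods give another percentage). All 4 samples had received 10 nM bafilomycin A1 for 30 h, and RNA of each (100 ng) was hybridised to its own single-colour Agilent array, all on 1 slide. The 3 untreated samples of the line were not analysed here, so every value below is a level, or a spread between replicates, in the treated state, and no response to the drug was computed. On replicate 3 the scanner software marked 2249 spots as outliers, against 514 to 725 on the other arrays, and these spots were left out. The line expressed its colon epithelial markers: 9 of 10 listed were detected on all 4 arrays and VIL1 was well above background on none. Of other cell types, 3 of 4 erythroid markers on the array, 2 of 4 hepatocyte, 2 of 4 macrophage and 1 of 4 fibroblast markers were detected, while HBB, ALB, TTR, CD163, COL1A2 and PDGFRB were well above background on no array.

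Iron bound to transferrin is taken up through the transferrin receptor and let go in acidified endosomes, where STEAP3 reduces it and SLC11A2 carries it into the cytosol. Bafilomycin A1 inhibits the vacuolar proton pump that acidifies these endosomes and the lysosomes in which NCOA4 delivers ferritin for breakdown. When iron is scarce, ACO1 and IREB2 bind hairpins called iron-responsive elements, which stabilises the TFRC mRNA and blocks translation of the ferritin mRNAs.

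The probes decide how these genes can be read, so the stretches that differ are shown first, as the array files give them, with coordinates on GRCh37. FTH1 has 4 probes, and the pair from its coding part, printed here, overlaps. The other pair, A_33_P3253249 and A_32_P342064, lies beyond the coding part and overlaps by 26 bases, of which 24 are identical when aligned without gaps, and is not printed. Capitals mark the bases at which the overlapping stretches differ. A_21_P0013796 lies at chr11:61732293-61732352 and A_24_P58337 at chr11:61732276-61732335, both on the minus strand.
A_21_P0013796: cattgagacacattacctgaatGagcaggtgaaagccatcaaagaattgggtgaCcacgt
A_24_P58337: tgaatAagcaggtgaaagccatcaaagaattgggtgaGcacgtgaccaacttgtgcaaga
Of the 43 overlapping bases, 41 are identical and the others are G23A and C55G, counted from 1 at the 5′ end of A_21_P0013796. No genome was used here, so which letters the gene itself carries was not examined. Set against the FTL probe A_19_P00812340, the first of these probes is identical at 36 of 51 aligned bases (70.6%).

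A second set shows the base composition of probes in coding sequence, with G and C in capitals. They come from TFR2 (chr7:100225205-100225264, minus strand), STEAP3 (chr2:120012364-120012423, plus strand), NCOA4 (chr10:51582877-51582936, plus strand), FTL (chr19:49469029-49469088, plus strand) and SLC11A2. The SLC11A2 probe crosses an exon junction, since its 60 bases cover 2419 bases of chromosome 12, from 51382184 to 51384602 on the minus strand.
TFR2: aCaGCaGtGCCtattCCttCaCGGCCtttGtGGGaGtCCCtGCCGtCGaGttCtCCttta
STEAP3: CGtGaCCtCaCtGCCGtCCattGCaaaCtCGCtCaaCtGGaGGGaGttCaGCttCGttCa
NCOA4: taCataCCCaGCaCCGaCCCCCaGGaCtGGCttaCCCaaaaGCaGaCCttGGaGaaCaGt
FTL: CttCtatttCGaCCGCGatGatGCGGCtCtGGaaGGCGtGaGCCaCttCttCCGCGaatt
SLC11A2: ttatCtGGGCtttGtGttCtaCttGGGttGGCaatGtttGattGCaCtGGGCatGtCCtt
The first 4 of these hold 55% G and C, and the SLC11A2 probe 45%. On replicate 3, against the mean of the other arrays, the TFR2 probe lay at -0.19, the STEAP3 probe at -0.10, the FTL probe at -0.10 and the SLC11A2 probe at 0.10, while the NCOA4 probe had no value there after outlying spots were left out.

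Letters of the iron-responsive element were looked for in RefSeq sequence (GRCh38.p14) over the first 50 bases after each gene start, on the transcribed strand. The loop of the element is searched as CAGTGN, and the loop with the bulged C before it as CNNNNNCAGTGN, where N is any base. For 8 members a window was held, and FTH1 and TFR2 had none. CAGTGN occurred in 2 of the 8, FTL and NCOA4, and in 7.95% of 27305 genes. Capitals mark it in the 30 bases printed, from chr19:48965329-48965358 for FTL (plus strand) and chr10:46019962-46019991 for NCOA4 (minus strand).
FTL: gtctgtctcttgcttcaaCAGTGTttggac
NCOA4: ctgggctctgaaagctgaCAGTGCtctaac
The longer pattern was met in FTL alone among the 8, and in 2.12% of all genes. Stretches beyond these 50 bases, including the 3′ parts of the transcripts, were not searched. A member without a match may therefore hold the element elsewhere. A match of letters is a description, and whether it is a binding site was not tested.

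All 10 iron genes were detected in the treated cells, where detection means that at least 1 probe was well above background on all 4 arrays. Over all gene names on the array 52.5% were detected. Values in what follows are log2 background-subtracted signals minus the median of the array, with the median taken over the probes of a gene. They cannot be compared between genes, because each probe has its own brightness. For the same gene they can be compared between arrays as long as the same probes set the median.

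Of the uptake genes, TFRC, the receptor that carries transferrin iron into most cells, is read by 1 probe at chr3:195776593-195776652. It lay at 8.04, 8.37, 8.14 and 8.01 on replicates 1 to 4, a mean of 8.14 ± 0.16 (SD, n = 4). Replicate 2 was the highest, and the whole range covered 1.29-fold. This probe is printed as 10 spots per array, and the SD of the log2 signal among spots was 0.20, 0.16, 0.20 and 0.16 on the arrays in turn. The ranges of the spots overlapped, with 17425 to 25509 units of signal on replicate 1 and 20130 to 27834 on replicate 2. Set spot by spot, however, replicate 2 was above replicates 1, 3 and 4 in 10 of 10 spots each, and above replicate 1 by 0.26 to 0.48 on the normalized log2 scale. The spots of a probe share the labelled RNA of their array and are not replicates of the treatment.

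TFR2, the second transferrin receptor, known mainly from liver and erythroid cells as a sensor of transferrin iron, was also detected on every array. Its values were 2.80, 2.70, 2.47 and 2.49 (2.62 ± 0.16, SD, n = 4). Replicates 1 and 2 lay above replicates 3 and 4, and TFR2 was the only 1 of the 10 genes with its lowest value on replicate 3.

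STEAP3 reduces ferric iron in the endosome so that it can be transported. Its values were 3.07, 3.06, 3.07 and 2.84 (3.01 ± 0.11, SD, n = 4). Replicates 1 to 3 lay within 0.01 of each other and replicate 4 stood below them. This closeness hid movement of its 2 probes in opposite directions. The probe at transcript position 4054 (chr2:120022998-120023057) gave 4.49, 4.48, 4.71 and 4.40 and was highest on replicate 3. The probe at position 1628, shown above, gave 1.65, 1.64, 1.42 and 1.29 and was lower on replicates 3 and 4.

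SLC11A2, which moves ferrous iron out of the endosome, lay at 2.78, 2.97, 3.07 and 2.76 (2.89 ± 0.15, SD, n = 4). Replicates 2 and 3 were above replicates 1 and 4. Its probes named different arrays as highest. The junction probe at position 1695 gave 2.94, 3.25, 3.1 and 2.82, with replicate 2 on top, and the probe at position 3580 (chr12:51380299-51380358) gave 2.62, 2.69, 3.04 and 2.70, with replicate 3 on top.

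Of the storage genes, FTH1, the ferritin heavy chain, which oxidises iron for storage, lay at 11.03, 11.06, 11.07 and 10.93 (11.02 ± 0.06, SD, n = 4). Its arrays covered 1.10-fold, the smallest range of the 10 genes, and 2.44% of detected genes had a smaller SD. This is the SD of a median over 4 probes, whose own SDs ranged from 0.05 to 0.16. The overlapping coding probes shown above gave 11.10, 11.19, 11.15 and 11.05 for A_21_P0013796 and 10.97, 11.05, 10.99 and 10.93 for A_24_P58337. They moved together from array to array in spite of the differing bases. The probes further along the transcript, at positions 855 (chr11:61732071-61732130) and 889 (chr11:61732038-61732096), were both highest on replicate 3, at 11.32 and 10.76. On replicates 1, 2 and 4 the former lay at 11.11, 11.07 and 10.94 and the latter at 10.48, 10.55 and 10.54. Whether these probes also read other ferritin genes and pseudogenes was not tested.

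FTL, the ferritin light chain, which forms the mineral core together with the heavy chain, lay at 8.15, 8.43, 8.28 and 8.17 (8.26 ± 0.13, SD, n = 4). Replicate 2 was the highest array. Set against the mean of each probe, its 3 probes ranged from -0.10 to 0.26 on replicate 2 and, farthest apart, from -0.24 to 0.18 on replicate 3. Nearest the start, the probe at position 165 (chr19:49468731-49468790) gave 8.15, 8.43, 7.93 and 8.17 and was lowest on that array. The probe at position 303, shown above, gave 8.41, 8.58, 8.37 and 8.41. Nearest the end, the probe at position 594 (chr19:49469860-49469919) gave 7.99, 8.0, 8.28 and 8.13 and was highest on that array. The median fell on the probe at position 165 on replicates 1, 2 and 4, and on the probe at position 594 on replicate 3. By itself the probe at position 165 covered 1.41-fold, while the gene value covered 1.21-fold.

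NCOA4 binds ferritin and hands it to the autophagosome, so that stored iron is released in the lysosome. It has 2 probes of very different signal. The probe at position 3587 (chr10:51590584-51590643) gave 8.34, 8.48, 8.80 and 8.39 (8.50 ± 0.21, SD, n = 4) and covered 1.38-fold. The probe at position 951, shown above, gave 3.47, 3.64 and 3.27 on replicates 1, 2 and 4. Its spot on replicate 3 was well above background but carried a background outlier mark and was left out. With that spot kept it read 3.26, and the probe covered 1.30-fold. The gene value, a median over the probes present, was therefore 5.91, 6.06, 8.80 and 5.83, a range of 7.81-fold with an SD of 1.44. With outlying spots kept the SD of NCOA4 was 0.11, and neither probe by itself reached 1.4-fold.

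SLC40A1, the only known exporter of iron from cells, was read close to the background of the arrays. Its probe (chr2:190425750-190425809) lay at -1.49, -1.34, -0.68 and -1.42 (-1.23 ± 0.38, SD, n = 4). Replicate 3 stood 0.67 above the next array, while the other 3 lay close together, and Dixon's ratio of 0.817 was just below its critical value. The probe is printed as 10 spots, of which 8, 9, 10 and 8 were well above background on replicates 1 to 4. The mean signal over the spots used was 27.4, 27.7, 44.0 and 23.7 units, and the lowest signal of any spot called well above background on these arrays was 20.8 to 22.3 units. The spots of replicate 3, at 37.2 to 51.7 units, overlapped with those of replicate 1, at 11.8 to 41.7 units, and lay above those of replicates 2 (19.8 to 34.5) and 4 (15.8 to 28.8). Set spot by spot on the normalized log2 scale, replicate 3 was above each other array in 9 of the 9 spots used on both, and above replicate 1 by 0.22 to 1.79. A spot of replicate 2 at 43.1 units and a spot of replicate 3 at 56.8 units were marked as outliers and left out. After normexp background correction and quantile normalization the SD of SLC40A1 was 0.12. That correction adds an offset of 50 units, more than the mean signal of this probe on any array. Such an offset narrows log2 differences between faint signals. Quantile normalization was applied in the same setting, and the steps were not run apart. How much each of them lowered this SD was not tested.

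**Figure D1:**
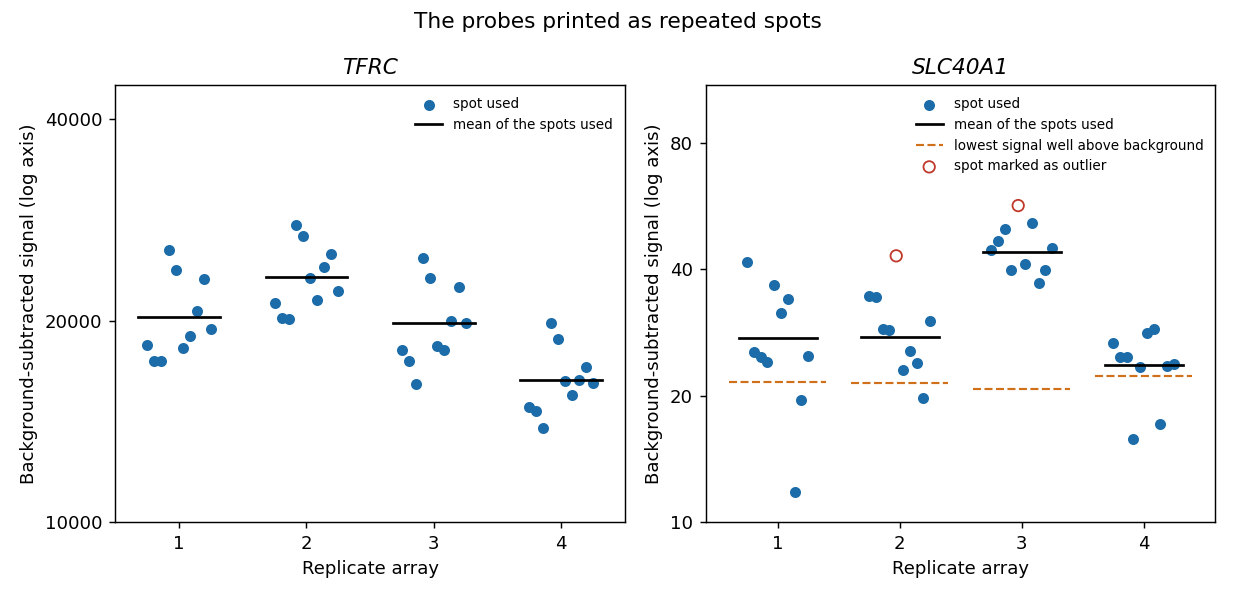
Background-subtracted signal (log axis) of each of the 10 spots of TFRC (left) and SLC40A1 (right) on each replicate array. Filled points are spots used, open points spots marked as outliers, black lines the mean of the spots used and dashed lines the lowest signal called well above background. The ranges of the TFRC spots overlap between arrays, and for SLC40A1 the means were 27.4, 27.7, 44.0 and 23.7.

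Among the regulators, IREB2, which is removed by proteasomal breakdown when iron is plentiful, lay at 4.56, 4.68, 5.21 and 4.45 (4.72 ± 0.33, SD, n = 4). Replicate 3 stood 0.53 above the next array, and the range was 1.69-fold. ACO1, which switches between a cytosolic aconitase and an RNA-binding protein, lay at 4.50, 4.57, 4.88 and 4.42 (4.59 ± 0.20, SD, n = 4). It had the same order of arrays as IREB2, with replicate 3 at 0.31 above the next, and its range of 1.37-fold was just inside 1.4-fold. Each has 1 probe, at chr15:78793507-78793566 for IREB2 and chr9:32450545-32450604 for ACO1.

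**Figure D2:**
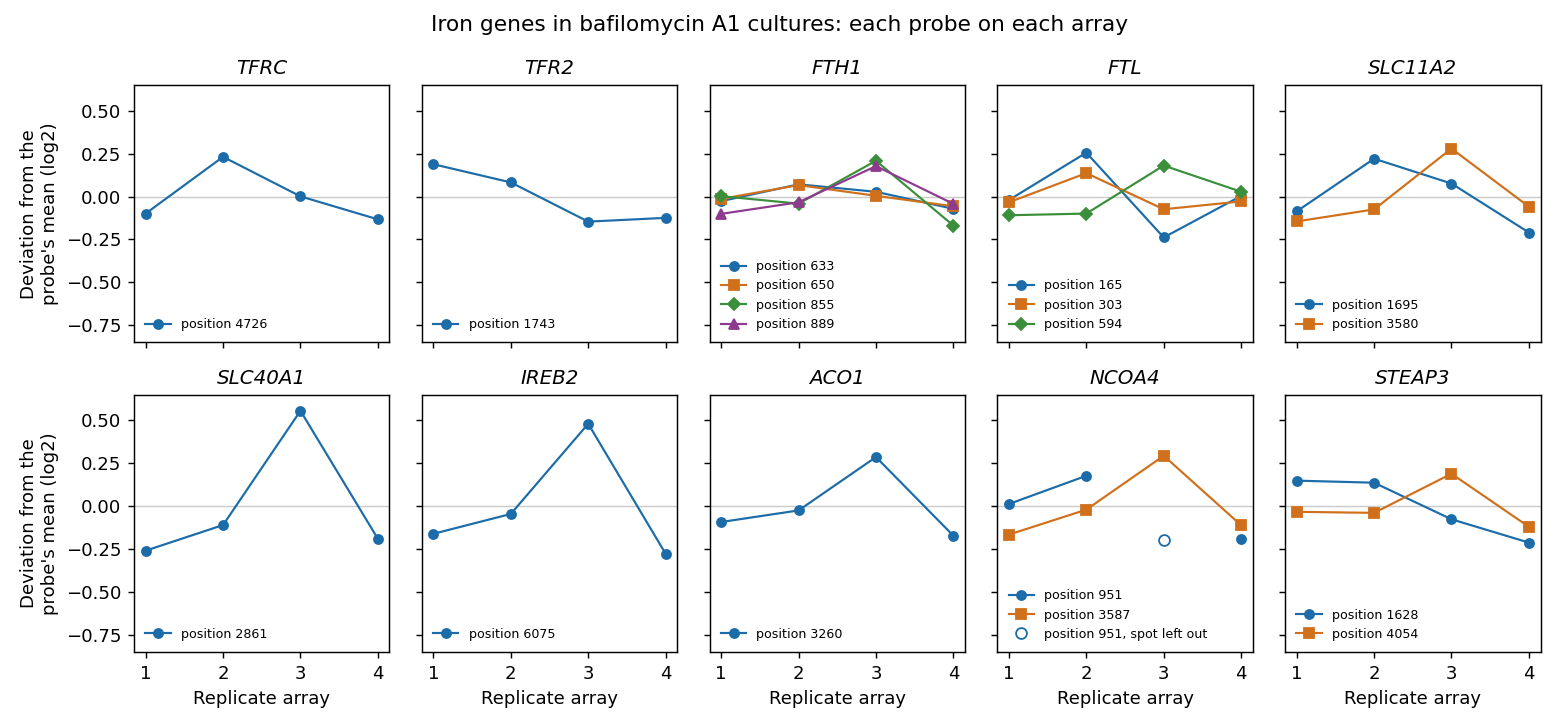
Deviation of each probe from its own mean over the arrays (log2, y axis) on replicate arrays 1 to 4 (x axis), 1 panel per gene and 1 line per probe, named by its position in the transcript. SLC40A1 and IREB2 are raised on replicate 3, the FTL and STEAP3 probes part on that array, and the open point is the NCOA4 spot that was left out, set against the mean of the other arrays.

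The study used 1.4-fold as a cut-off for the ratio of an aneuploid to a diploid line, calculated from medians over replicates. Here the same number is set to the highest over the lowest single array, which is another and wider measure. How much noise enters the study's ratios cannot be read from it. Between replicates of the same treated state, 3 of the 10 iron genes covered more than 1.4-fold in gene value: NCOA4, SLC40A1 and IREB2. With outlying spots kept the number was 2, since the range of NCOA4 rests on the spot that was left out. Over all detected genes this held for 46.4%. The median SD of the 10 genes was 0.16, with a range from 0.06 for FTH1 to 1.44 for NCOA4, and the median of all 19083 detected genes was 0.21. In 82.6% of detected genes the SD was below that of SLC40A1, and in 78.2% below that of IREB2. Without replicate 3, 0 of the 10 genes covered more than 1.4-fold, beside 21.6% of the same detected genes, and their median SD was 0.12. A range over 3 arrays cannot exceed that over 4. By Dixon's ratio, a single array stood away from the rest in NCOA4 and STEAP3, and in 8.48% of all detected genes.

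**Figure D3:**
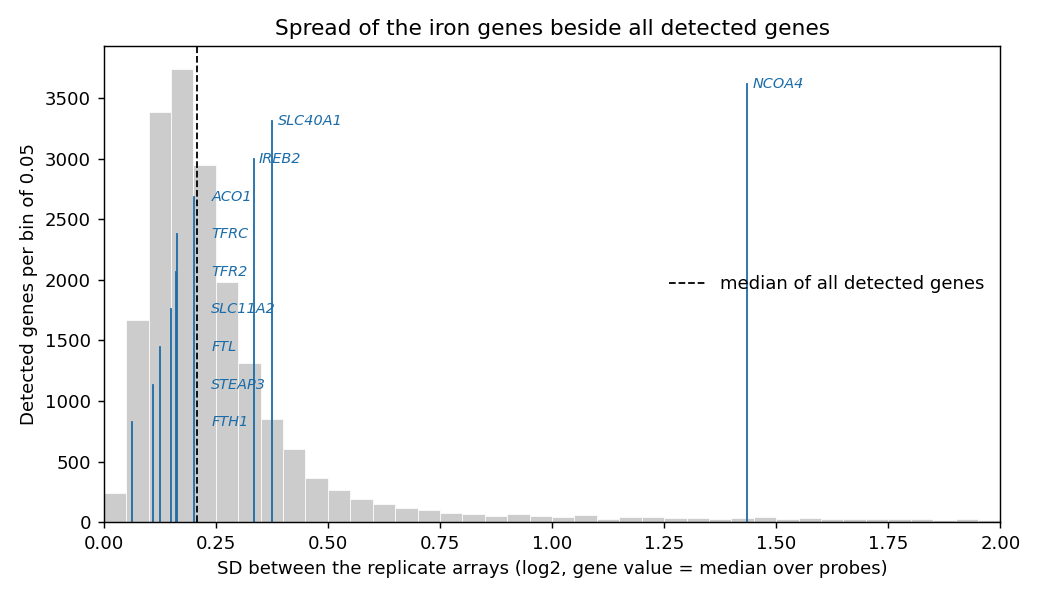
Number of detected genes (y axis) by SD between the replicate arrays (log2, x axis, bins of 0.05, cut at 2), with the 10 iron genes as vertical lines whose height has no meaning. The dashed line is the median of all detected genes, 0.21, and 7 of the iron genes lie to its left.

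The array on which a gene was highest was most often replicate 3. This was so for 6 of the 10 iron genes, beside 48.5% of all detected genes. Replicate 4 was the lowest array for 7 of the 10, beside 35.1%. The shift of replicate 3, taken as its value minus the mean of the other 3 arrays, moved with the base composition of the probe. Replicate 3 was not the only array with such a trend. The trend was fitted to the deviation of each probe from its mean over the arrays. It took off 14.5%, 1.8%, 16.1% and 1.95% of the variance of these deviations on replicates 1 to 4. The shares give no direction, and they are not independent, since that mean holds every array. Replicate 1 is also part of the mean used for the shift. All 7 probes of iron genes with under 45% G and C were raised on replicate 3, by 0.24 to 0.74, beside 79.1% of all detected probes of that kind. Of the 10 probes at 45% or more that had a value there, 6 lay above 0, beside 49% of all such probes. Of these 6, 3 were at 0.0013 to 0.037, which is close to no shift, and the other 3 at 0.10 to 0.25. The remaining 4 lay between -0.32 and -0.10. In the group from 35% to under 40% G and C, the 5 iron probes had a median shift of 0.38 and all detected probes a median of 0.32. From 40% to under 45% the medians were 0.56 over 2 iron probes and 0.19 over all, and from 45% to under 50% they were 0.02 over 6 iron probes and 0.09 over all. At 55% and above, 4 iron probes had a median of -0.10 and all detected probes of -0.10. Across the 17 probes with a value on every array the Spearman correlation was -0.73, and across 24633 detected probes -0.44. The probes share the arrays and some share a gene, so these are descriptions without a p-value.

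**Figure D4:**
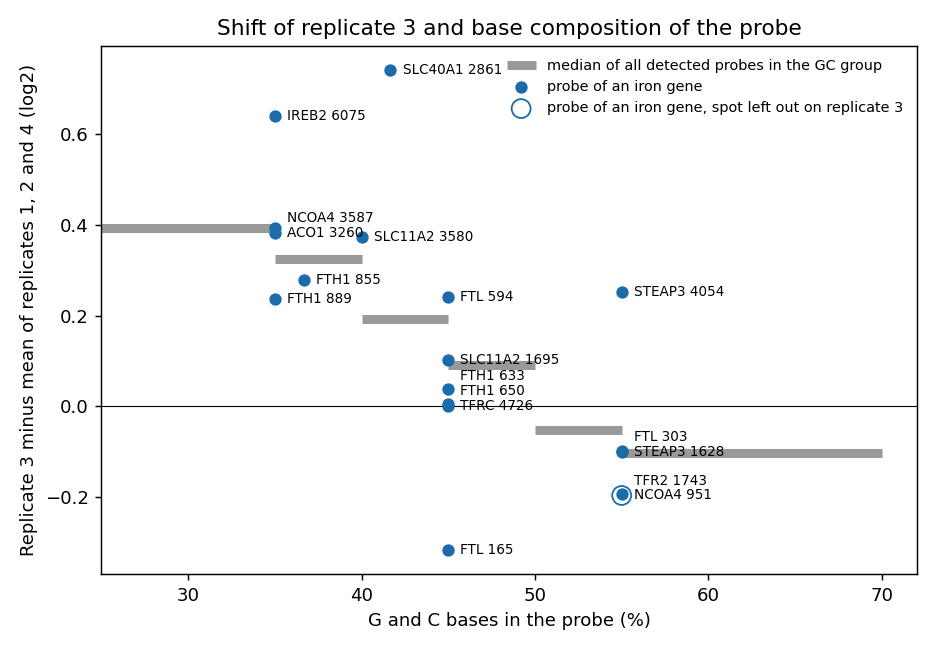
Shift of replicate 3 from the mean of the other arrays (log2, y axis) against the share of G and C bases (x axis) for each probe of the 10 genes, labelled with gene and transcript position. Grey bars are medians of all detected probes in each group of base composition, and the open circle is the NCOA4 spot left out. The 7 iron probes under 45% lie between 0.24 and 0.74.

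Probes of a gene with equal composition also parted. In FTL the probes at positions 165 and 594 both hold 45% G and C, yet on replicate 3 the later was shifted by 0.56 more than the earlier. In STEAP3 both probes hold 55%, and the later was shifted by 0.35 more. In all 4 genes with several probes detected on every array (FTH1, FTL, SLC11A2 and STEAP3) the last probe was shifted upwards against the first, beside 71.7% of 4176 such genes. Among genes whose last probe is not lower in G and C, to which FTL and STEAP3 belong, this share was 63.3%. What made replicate 3 differ was not tested. Removing from each array its trend with base composition brought the SD of IREB2 from 0.33 to 0.18 and of ACO1 from 0.20 to 0.05, and that of SLC40A1 from 0.38 to 0.31. The trend was fitted on these same arrays, with the probes of these genes among those fitted. A lower SD is therefore partly built in, and no cause was tested by it.

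Around these genes, 49 other genes of iron biology were on the array, of which 39 were detected on all 4 arrays. Over all gene names on the array the share detected was 52.5%. The mitochondrial iron genes were all detected (8 of 8), as were the iron chaperones and the genes that control IRP2 (6 of 6). Of the haem genes 7 of 8 were detected, of the carriers and hormones 6 of 10, of the reductases and oxidases 4 of 6, of the other importers 4 of 5 and of further mRNAs with an iron-responsive element 3 of 4. Transferrin itself (TF) and hemojuvelin (HFE2), a liver and muscle protein, were well above background on no array. The same held for the reductase STEAP4, the plasma ferroxidase CP, the haem transporter relative FLVCR2 and the ferritin light chain pseudogene FTLP10. FTHL17, a ferritin heavy chain relative known from the testis, was detected at 7.97, 7.92, 7.12 and 7.69, and whether its probe also reads FTH1 was not tested.

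These neighbours had a median SD of 0.17, and 12 of the 39 detected ones covered more than 1.4-fold, beside a median SD of 0.21 and a share of 46.4% over all detected genes. Without replicate 3, 3 of the 39 did. The lysosomal haem transporter SLC48A1 and the mitochondrial iron importer SLC25A28 had the smallest SDs, 0.11 and 0.12. The largest SDs came from probes that drop out. SKP1, a subunit of the ligase that marks IREB2 for breakdown, gave 6.57, 6.70, 4.71 and 6.47, but its brighter probe had lost a spot with a background outlier mark on replicate 3 and read 8.66 there with the spot kept. TMPRSS6, a protease that restrains hepcidin, gave 0.99, -0.26, 0.87 and -1.59, and its probe with a value on every array had an SD of 0.27.

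**Figure D5:**
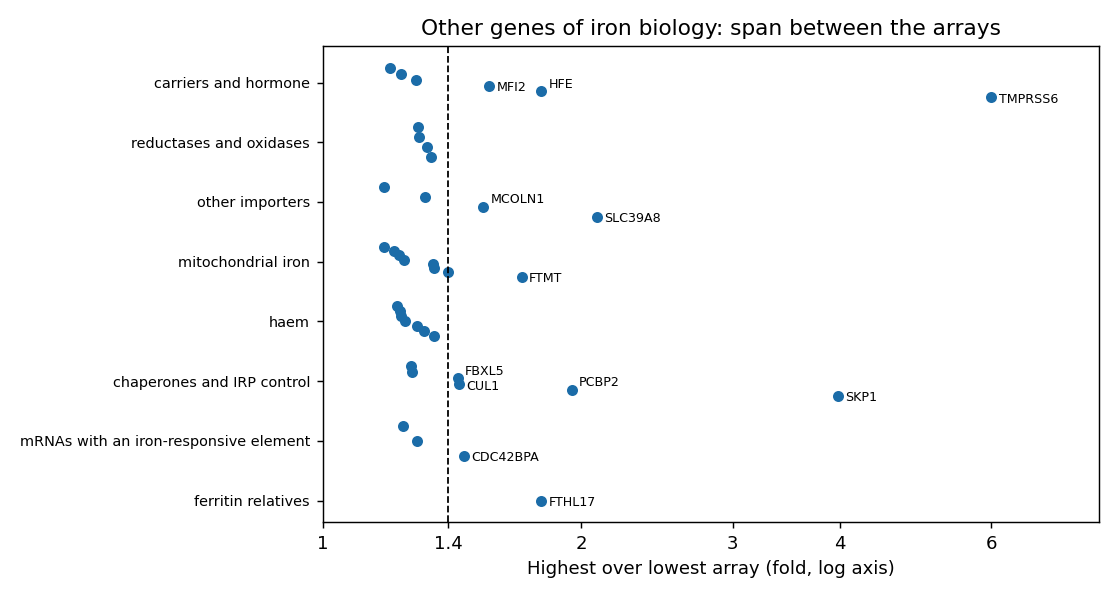
Highest over lowest array (fold, log axis) for the 39 detected neighbours in iron biology, 1 point per gene, in rows by role. The dashed line is 1.4-fold, and the 12 genes beyond it are named.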

How the data were processed

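Total RNA of 4 bafilomycin A1 samples was measured on single-colour arrays. The authors deposited scanner files of Agilent Feature Extraction 10.7.3.1, with linear intensity per spot, less background and without normalization across arrays. The deposited files also hold flags per spot. As in the study's methods, each log2 signal was set against its array median, and probes of a gene were summarised by their median. Beyond these methods, control spots and spots with a feature or background outlier flag were left out, spots of a probe were averaged, and signals at or below 0 were left out of that array. Detection of a probe needed over 50% of its remaining spots to be well above background. Dixon's ratio (critical value 0.829, about 5% by chance) marked a single array apart.

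The members and lists were chosen with earlier results of these data known. All 10 members are named. Of 49 further iron genes (1 more that was listed is not reported here), those detected on no array, those with an array apart, the 2 smallest and 2 largest SDs, and detected ferritin relatives are named. Other genes were named after their values were seen. The number of arrays limits the precision. The statistics were tested on simulated data.

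Other settings tried were processed signals centred at the 75th percentile, normexp with an offset of 50 and quantile normalization, other probe, spot, centre and detection rules, and leaving out each array. Software was limma 3.58.1 in R 4.3.3, and scipy 1.17.1, pandas 2.3.3, numpy 2.4.6 and matplotlib 3.10.9 in Python 3.11.15.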

Additional observations from a re-analysis of the deposited data

Results flagged for a closer look

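Of 66 values over 4 arrays (genes, probes and detected neighbours), 3 held 1 array that stood away from the rest (Dixon's ratio). Chance gives about 5%, and 8.48% of all detected genes held such an array. A gene with 1 probe enters the 66 both as gene and as probe, so the values are not independent and their share is a description. NCOA4 was apart on replicate 3, at 8.80, where only 1 of its probes entered the median. STEAP3 was apart on replicate 4, at 2.84. SKP1 was apart on replicate 3, at 4.71, again with 1 probe left out. No single probe of the 10 genes was apart (0 of the 17 with a value on all 4 arrays). The causes were not tested.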

How the results depend on the processing

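All 10 genes were detected under each detection rule tried, and of the neighbours 39 to 46 were. The number of the 10 genes beyond 1.4-fold, 3, ranged from 0 to 3 with an array left out, with 0 only without replicate 3. It was 1 after normexp and quantile normalization, namely NCOA4, while the SD was 0.20 for IREB2 and 0.12 for SLC40A1. With processed signals it was 3, the same genes as reported. It was 2 under the other settings. These were NCOA4 and SLC40A1 with the composition trend removed, and SLC40A1 and IREB2 otherwise. Their median SD, 0.16, ranged from 0.12 to 0.18 with an array left out, and was 0.13 after normexp and quantile normalization, 0.13 with processed signals and 0.10 with the composition trend removed. Neighbours beyond 1.4-fold numbered 5 after normexp and quantile normalization and 3 to 11 with an array left out, with 3 only without replicate 3. A single array was apart in 1 of the 10 genes, not 2, with only probes well above background, only probes positive on every array, outlying spots kept, spots with only a background outlier mark kept, or the trend removed, and in 3 with processed signals. Of 70 SDs of single genes under settings that use every array, 42 were lower than reported, 10 higher and 18 equal. Centring on the median over all probes raised the levels by 0.99 to 1.22 depending on the array, so the levels hold only for the centre used. It accounts for 9 of the 11 levels, of 90, that moved by more than their SD between arrays. The causes were not tested. Leaving out only spots with a feature outlier mark had been computed first, and both readings had been seen before that with background marks was taken, because it follows an earlier processing of these data. This alternative and the removal of the composition trend were chosen after seeing the data. The trend took off 16.1% of the variance of the probe deviations on replicate 3. No paired analysis was possible because only the treated samples were analysed here. Faint signal limits SLC40A1. The normexp offset of 50 narrows log2 differences between faint signals, and it was not run apart from quantile normalization.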
